A study of Mus musculus with 2 samples.

Results

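The genes described here make and load major histocompatibility complex (MHC) class I molecules, the surface proteins that show peptides from inside a cell to CD8+ T cells. They were chosen by gene symbol, and all 10 were found among the 40879 gene symbols counted in each library: B2m, H2-K1, H2-D1, H2-T23, H2-Q4, H2-M3, Tap1, Tap2, Tapbp and Nlrc5. Intestine of wild-type (WT) mice was compared with intestine of mice labelled heterozygous for ERAP1 (ERAP1+/-), all on a C57BL/6 background and 8 weeks old at the start of the study. RNA of 3 mice was pooled for each genotype and sequenced from the 3' ends of polyadenylated transcripts as 1 library. The ERAP1+/- mice descended from a tm1a allele of ERAP1 crossed with a strain carrying Cre recombinase, which the methods do not name, so that exons 6 and 7 could be deleted. The methods call the mice germ-free and also place them in a specific pathogen-free facility. The labels name no treatment for these pools and no stretch of the intestine. The abstract of the study describes the sequenced tissue as colonic, and its discussion describes this comparison as one at steady state.

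ERAP1 is an aminopeptidase of the endoplasmic reticulum that trims peptides before they bind class I molecules. A class I molecule is a heavy chain held by the light chain beta-2 microglobulin. Peptides cut by the proteasome are pumped into the endoplasmic reticulum by the transporter TAP, and tapasin brings the empty molecule to that pump. The genes are driven by NLRC5 and by interferon signaling, and in the intestine the epithelium and the immune cells of the mucosa both carry class I molecules.

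Counted reads came to 8114826 for WT and 8907515 for the library labelled ERAP1+/-. Levels are given as counts of a gene in each 1000000 counted reads (CPM) after TMM scaling, which sets the libraries level over the bulk of the genes. Differences are ERAP1+/- minus WT on the log2(CPM + 1) scale, on which changes of sparsely read genes look smaller than they are. With 1 pooled library per genotype there was no spread between replicates to test against. Intervals are 95% intervals that cover counting error only, so that differences between mice or pools are not in them, and no p-value was computed. Only genes that reached 15 CPM in either library, a log2(CPM + 1) of 4, were compared. Erap1 itself was read 229 times in WT and 2 times in the other library, 0.00730 times the WT level (95% interval 0.000878 to 0.0267). The heterozygous label implies 1 intact copy, and so low a value goes against it. Reads from the 3' end lie outside exons 6 and 7 and cannot check the deletion itself. The library is therefore named by its label, and every direction given is between the libraries as labelled. Of 15 markers of intestinal epithelium, all 15 passed that level, with 126042 and 141830 reads. The libraries also differed in other tissue: 12 markers of suprabasal epidermis summed to 26589 and 217 reads, and 12 of skeletal muscle to 8462 and 213 reads. Xist had 1635 and 6451 reads and 4 Y-linked genes were all lower in the latter, so that the sex of the mice and the genotype cannot be told apart.

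None of the 10 class I genes differed more than 2-fold at that level, where 5.34% of 8013 genes did. The light chain and the main heavy chains nevertheless lay on opposite sides of 1. B2m was 1.17 times its WT level, whereas H2-K1, H2-D1 and Tapbp were 0.739, 0.662 and 0.663 times theirs. Past 1.5-fold there were 2 genes, H2-D1 and Tapbp, both lower. Beside them, 15.6% of all compared genes passed 1.5-fold, 803 of them lower and 444 higher. Over the 10 genes the median difference was -0.24 on the log2 scale, with 6 genes lower and 4 higher, beside a median of -0.03 over all compared genes. The 10 include 4 genes below the level, and the compared genes include none. The counting interval of the ratio lay away from 1 for 6 of the 10 genes, 4 lower and 2 higher. Among the members past the level it lay away from 1 for 5 of 6, lower for H2-K1, H2-D1, Tap1 and Tapbp and higher for B2m. Of these, Tap1 passed the level only through WT, the library where it was higher (17.1 and 11.8 CPM). Over the compared genes, which all passed the level, the interval lay away from 1 for 57.9%, 32.4% lower and 25.5% higher. The difference between these shares was not tested. Of the 10 genes, 6 passed the level and 4 (H2-T23, H2-Q4, H2-M3 and Nlrc5) had between 5 and 23 reads.

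**Figure D1:**
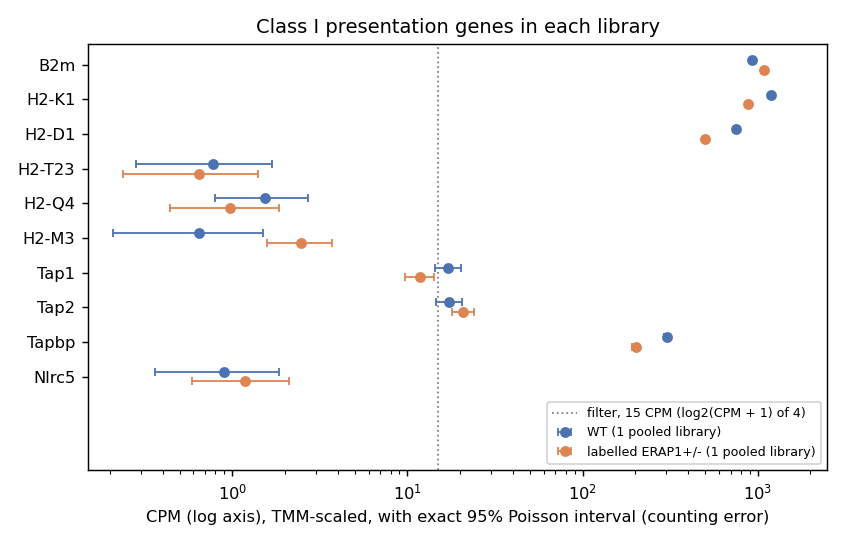
Level of each of the 10 genes in the WT library (blue) and the library labelled ERAP1+/- (orange), in CPM on a log axis with exact 95% Poisson intervals, and the level of 15 CPM as a dotted line. B2m, H2-K1, H2-D1 and Tapbp lie far to the right of the line with intervals about as narrow as the points, and H2-T23, H2-Q4, H2-M3 and Nlrc5 lie to the left of it.

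B2m encodes the light chain shared by class I molecules and several related proteins (chromosome 2 of GRCm38, 122147686 to 122153083, plus strand). It had 7230 reads in WT and 10132 in the library labelled ERAP1+/-, or 930.5 and 1089 CPM. The level was higher in the latter, by 0.23 on the log2 scale, with a ratio of 1.17 (95% interval 1.14 to 1.21). B2m stood at the 76.1th percentile of the compared genes by its difference. None of the windows of 75 bases in the last 500 bases of its transcript occurred in a transcript of another gene, so that its reads can be placed without a rival copy.

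H2-K1 and H2-D1 encode the classical heavy chains, which present peptides to CD8+ T cells. H2-K1 (chromosome 17, 33996017 to 34000347, minus strand) had 9290 and 8216 reads, or 1196 and 883 CPM. Its ratio was 0.739 (95% interval 0.717 to 0.761) and its difference -0.44. H2-D1 lies on the plus strand of the same chromosome (35262730 to 35267499) and had 5848 and 4633 reads, or 753 and 498 CPM. Its ratio was 0.662 (95% interval 0.637 to 0.688) and its difference -0.59. Both heavy chains were thus lower in the library labelled ERAP1+/- by more than the counting error, at the 15.4th and the 9.76th percentile of the compared genes. In bulk tissue such a value cannot tell fewer cells that carry the transcript from less of it in each cell.

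The upstream sequences of H2-K1, H2-D1, H2-Q4 and B2m were chosen for printing after the values were seen. They are given as description, and their bearing on the levels was not tested. They were read from RefSeq on GRCm38.p6, run 5' to 3' on the strand of the gene and lie before the RefSeq start of transcription. Capitals mark matches on either strand to GAANNGAAA, the core of the interferon response element, to GGGNNTTCC, a kappa B element, to TGACG, as in the X2 box of MHC promoters, and to CCAAT, as in the Y box. No match overlapped another in these stretches. Only the exact spacing of each pattern was matched. The B2m stretch holds gaaactgaaa, which differs from GAANNGAAA in spacing alone, and it is left unmarked. It also holds gggaaagtccc, which on the other strand differs from GGGNNTTCC in spacing alone. A missing mark therefore does not show that such an element is absent. H2-K1 is shown over chr17:34000348-34000468 (minus strand), H2-D1 over chr17:35262913-35263063, H2-Q4 over chr17:35379434-35379584 and B2m over chr2:122147527-122147656 (plus strand).
H2-K1: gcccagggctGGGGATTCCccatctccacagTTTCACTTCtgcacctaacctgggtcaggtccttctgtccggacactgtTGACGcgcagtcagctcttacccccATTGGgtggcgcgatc
H2-D1: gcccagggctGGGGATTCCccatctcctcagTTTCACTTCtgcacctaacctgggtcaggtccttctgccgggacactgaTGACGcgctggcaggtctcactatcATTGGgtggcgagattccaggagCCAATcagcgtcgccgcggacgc
H2-Q4: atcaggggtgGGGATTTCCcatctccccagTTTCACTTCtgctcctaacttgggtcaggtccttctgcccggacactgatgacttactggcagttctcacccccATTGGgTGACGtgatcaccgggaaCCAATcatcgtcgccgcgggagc
B2m: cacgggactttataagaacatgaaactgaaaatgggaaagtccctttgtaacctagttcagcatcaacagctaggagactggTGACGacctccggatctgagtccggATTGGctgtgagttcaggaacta

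Over the 70 bases that begin at the interferon response match, H2-K1 and H2-D1 were identical at 63 bases, H2-D1 and H2-Q4 at 63 and H2-K1 and H2-Q4 at 59. RefSeq windows of 250 bases before to 50 after the start were found for 8 of the 10 genes (Tap2 and Nlrc5 were not matched). GAANNGAAA stood in the windows of H2-D1, H2-K1, H2-M3 and H2-Q4, against 7.56% of 27025 windows, and GGGNNTTCC in those of H2-D1, H2-K1 and H2-Q4, against 5.72%. TGACG was present in 6 of the 8 windows, against 21.0% of all, and CCAAT in all 8, against 37.9%. In the printed stretches TGACG stands before ATTGG in H2-K1, H2-D1 and B2m but after it in H2-Q4. A match to TGACG therefore need not be the X2 box. These matches describe letters in a window and not sites in use, and forms of the same elements with other spacing were not counted. The genes that share them did not share a read count: H2-K1 and H2-D1 had at least 4633 reads in each library and H2-Q4 at most 12. Reads lost or divided among similar heavy chain genes could be part of that difference, and this was not tested.

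The other heavy chains among the 10 genes are non-classical, and their reads were few. H2-T23, which encodes Qa-1, a ligand of the NK cell receptor CD94/NKG2A (chromosome 17, 36029773 to 36032855), had 6 reads in each library. Its ratio of 0.835 has a 95% interval from 0.223 to 3.12. H2-Q4 (chromosome 17, 35379617 to 35385290) had 12 and 9 reads and a ratio of 0.626 (95% interval 0.233 to 1.62). At this depth a change of 2-fold in either direction could not be seen for H2-T23, nor a fall of 2-fold for H2-Q4.

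H2-M3, whose product presents formylated bacterial and mitochondrial peptides (chromosome 17, 37270220 to 37274484), had 5 reads in WT and 23 in the library labelled ERAP1+/-. The levels were 0.643 and 2.47 CPM, with a ratio of 3.84 (95% interval 1.43 to 12.9) and a log2 difference of 1.08. It was the only 1 of the 10 genes past 2-fold with no filter on low values and was not called because neither library reached the level of 4. The transcript end of H2-M3 shared no window of 75 bases with another gene.

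**Figure D2:**
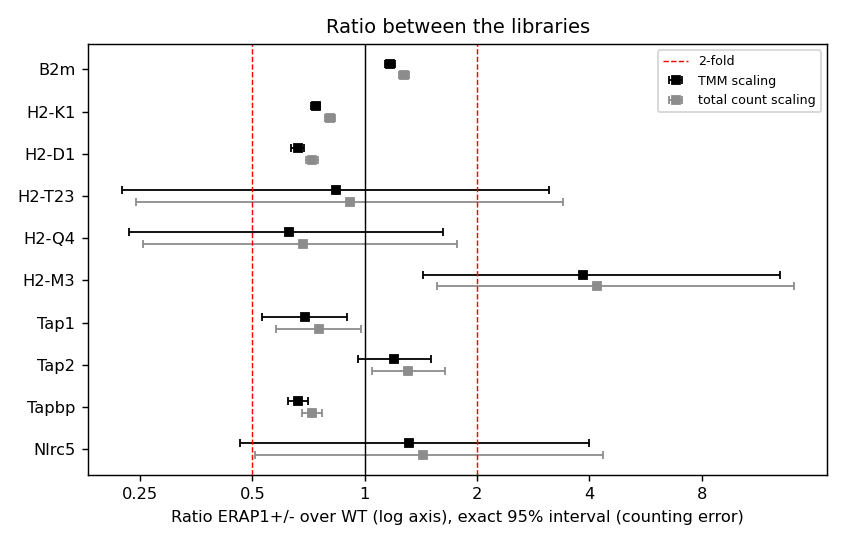
Ratio of the library labelled ERAP1+/- to the WT library for the 10 genes on a log axis, with exact 95% intervals, under TMM scaling (black) and scaling by the total count (grey); red lines mark 2-fold. B2m lies above 1 and H2-K1, H2-D1, Tap1 and Tapbp lie below 1 under both scalings, the intervals of H2-T23 and Nlrc5 under TMM scaling reach past 2-fold on both sides, and that of H2-Q4 on the lower side.

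Near-identical copies of heavy chain genes can divide or lose reads in the counting. Of the windows of 75 bases in the last 500 bases of annotated transcripts, 4.31% of those of H2-K1, 118 of the 1169 windows of H2-D1, 7.43% of those of H2-T23 and 12.2% of those of H2-Q4 also occurred in another gene. The sum over heavy chains does not depend on how reads are divided among them, although reads left uncounted as ambiguous are missing from it. The 5 heavy chain members summed to 15161 and 12887 reads (ratio 0.710, 95% interval 0.693 to 0.727). With the 29 other heavy chain genes in the files added, the sums were 16175 and 13771 reads and the ratio 0.711 (95% interval 0.695 to 0.728).

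Of the 3 genes of peptide transport and loading, Tapbp and Tap1 were lower and the interval of Tap2 held 1. Tapbp encodes tapasin (chromosome 17, 33915899 to 33929292, plus strand) and had 2360 and 1873 reads, or 304 and 201 CPM. Its ratio was 0.663 (95% interval 0.624 to 0.705), a log2 difference of -0.59, at the 9.87th percentile of the compared genes. Exons of Tapbp overlap those of Zbtb22 on the same strand over 149 of 3628 bases, and 0.596% of the windows at the ends of its transcripts occurred in that gene.

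Tap1 and Tap2 encode the subunits of the peptide pump and lie side by side on the plus strand of chromosome 17. Tap1 (34187553 to 34197225) had 133 and 110 reads, or 17.1 and 11.8 CPM, and a ratio of 0.691 (95% interval 0.532 to 0.896). Tap2 (34203527 to 34216321) had 135 and 194 reads, or 17.4 and 20.9 CPM, and a ratio of 1.20 (95% interval 0.959 to 1.51). Tap1 was thus lower in the library labelled ERAP1+/- beyond counting error and Tap2 was not distinguishable from 1. With scaling by the total count the ratio of Tap2 was 1.31 (95% interval 1.05 to 1.64) and no longer held 1. Nlrc5, the transactivator of class I genes (chromosome 8, 94434356 to 94527272), had 7 and 11 reads and a ratio of 1.31 (95% interval 0.465 to 3.99), too few to place it on either side.

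**Figure D3:**
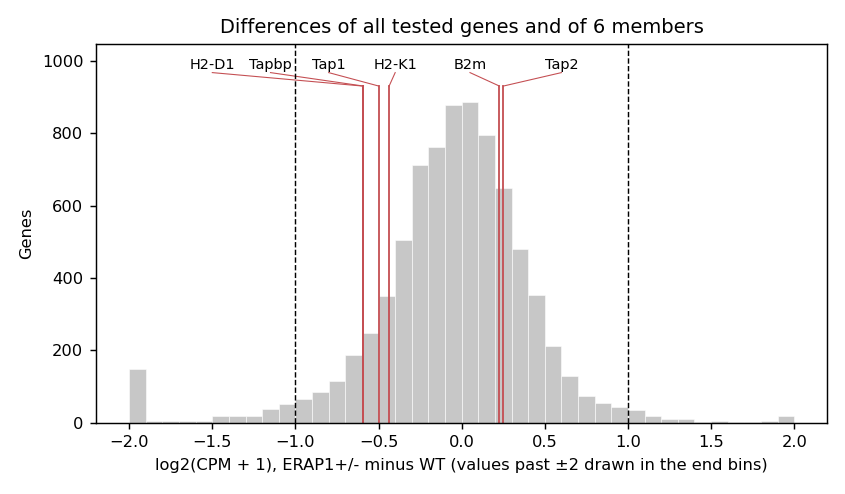
Number of genes (y axis) by the difference in log2(CPM + 1), ERAP1+/- minus WT (x axis), for the 8013 compared genes in grey, with red lines at the 6 class I genes past the level and dashed lines at 2-fold. H2-D1, Tapbp, Tap1 and H2-K1 lie between -0.59 and -0.44, left of the centre of the distribution, and B2m (0.23) and Tap2 (0.25) lie right of it, all within 2-fold.

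A ratio of 2 genes within a library does not depend on how the library is scaled. The number of B2m reads per H2-K1 read was 0.778 in WT and 1.23 in the library labelled ERAP1+/-, which is 1.58 times as many (95% Wald interval 1.52 to 1.65). Against H2-D1 the ratio rose from 1.24 to 2.19, or 1.77 times (95% interval 1.68 to 1.86), and against Tapbp it was 1.77 times as high (95% interval 1.65 to 1.89). The light chain therefore differed from the classical heavy chains and tapasin by more than counting error under any scaling. H2-D1 and Tapbp stood in nearly the same proportion in both libraries, with 2.48 H2-D1 reads per Tapbp read in WT against 2.47 (ratio 0.998, 95% interval 0.929 to 1.07). H2-K1 per H2-D1 read was 1.12 times as high in the library labelled ERAP1+/- (95% interval 1.06 to 1.17). Tap2 reads per Tap1 read were 1.74 times as high (95% interval 1.24 to 2.43). These pairs were chosen after the values were seen, and the intervals leave out differences between mice.

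**Figure D4:**
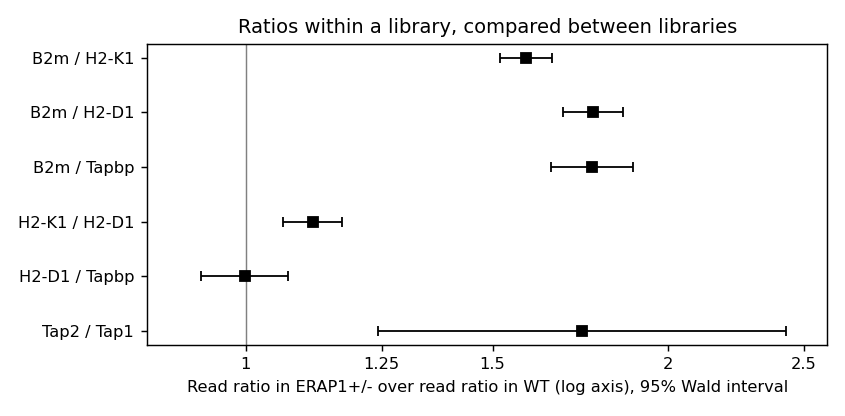
Ratio of reads of 2 genes in the library labelled ERAP1+/- divided by the same ratio in the WT library, on a log axis with 95% Wald intervals, for 6 pairs of class I genes. The pairs with B2m lie between 1.58 and 1.77, Tap2 over Tap1 at 1.74 with a wide interval, and H2-D1 over Tapbp at 1.

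Among the other class I heavy chains, 29 of the 41 listed genes were in the files, 15 of these had no read in either library and 10 had at least 10 reads over both. The median difference of the 10 was 0.10, with 5 higher and 5 lower. Only 3 of the genes in the files reached the level, where 5.34% of all compared genes were called. Of those 3 genes H2-Q1 was the only 1 called, with 229 reads in WT and 96 in the library labelled ERAP1+/-. Its ratio was 0.350 (95% interval 0.273 to 0.446) and its log2 difference -1.43. H2-Q2 had 432 and 330 reads (ratio 0.638, 95% interval 0.551 to 0.738), and H2-T22, a ligand of some gamma delta T cells, had 188 and 202 (ratio 0.898, 95% interval 0.732 to 1.10). Transcript ends of H2-Q1 and H2-Q2 share windows with each other, 7.28% of those of H2-Q1 and 3.64% of those of H2-Q2. The genes with more reads were thus lower or near 1, and those that were higher had few reads.

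Of 9 class I-like molecules, only 1, Fcgrt, reached the level, and it was not called. At least 10 reads were counted for 7, with a median difference of 0.07. Fcgrt encodes the heavy chain of the neonatal Fc receptor, which also pairs with the light chain. It had 392 and 493 reads and a ratio of 1.05 (95% interval 0.918 to 1.20). Procr and Mill2 had ratios of 1.13 and 1.03, with intervals that held 1.

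The chaperones that fold class I molecules lay on both sides of 1. All 9 reached the level and none was called. By direction 5 were higher and 4 lower, and the counting interval lay above 1 for 4 and below 1 for 3. Their median difference was 0.03. Hspa5, the main chaperone of the endoplasmic reticulum, had 5007 and 6657 reads (ratio 1.11, 95% interval 1.07 to 1.15). Calreticulin (Calr) had 3963 and 4348 reads (ratio 0.916, 95% interval 0.878 to 0.957, or 1.00 with scaling by the total count). Pdia3, the disulfide isomerase of the loading complex, had 2031 and 2892 reads (ratio 1.19, 95% interval 1.12 to 1.26). Tapbpl, the relative of tapasin that edits peptides outside the loading complex, was named after its values were seen. It had 437 and 376 reads and, as Tapbp did, a ratio below 1 (0.719, 95% interval 0.624 to 0.827).

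For the supply of peptides, 14 of 15 listed genes were in the files, 12 reached the level and none was called. Over the 14 the median difference was -0.12, with 3 higher and 11 lower. With scaling by the total count it was 0.01, with 7 higher and 7 lower. The counting interval lay above 1 for 1 gene, below 1 for 3 and held 1 for 10. Npepps, a cytosolic aminopeptidase, had 1264 and 1109 reads (ratio 0.733, 95% interval 0.675 to 0.795). Psme1, a subunit of the proteasome activator induced by interferon, had 755 and 1020 reads (ratio 1.13, 95% interval 1.03 to 1.24). Its partner subunit Psme2, named after its values were seen, went the other way with 738 and 668 reads (ratio 0.756, 95% interval 0.680 to 0.841). Psmb6, a constitutive catalytic subunit, had 817 and 896 (ratio 0.916, 95% interval 0.832 to 1.01). The inducible catalytic subunits Psmb8, Psmb9 and Psmb10, named after their values were seen, had ratios of 1.01, 1.01 and 0.957, and each interval held 1. Psmb9 starts beside Tap1 and runs in the other direction, with 212 exonic bases in common, and the reads of Psmb9 per Tap1 read were 1.46 times as high in the library labelled ERAP1+/- (95% interval 1.06 to 1.996). Strand-aware counting is not stated in the methods, so that reads in the overlap could have been given to either gene. The overlap lies where both genes start, however, and reads from 3' ends would mostly lie outside it.

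**Figure D5:**
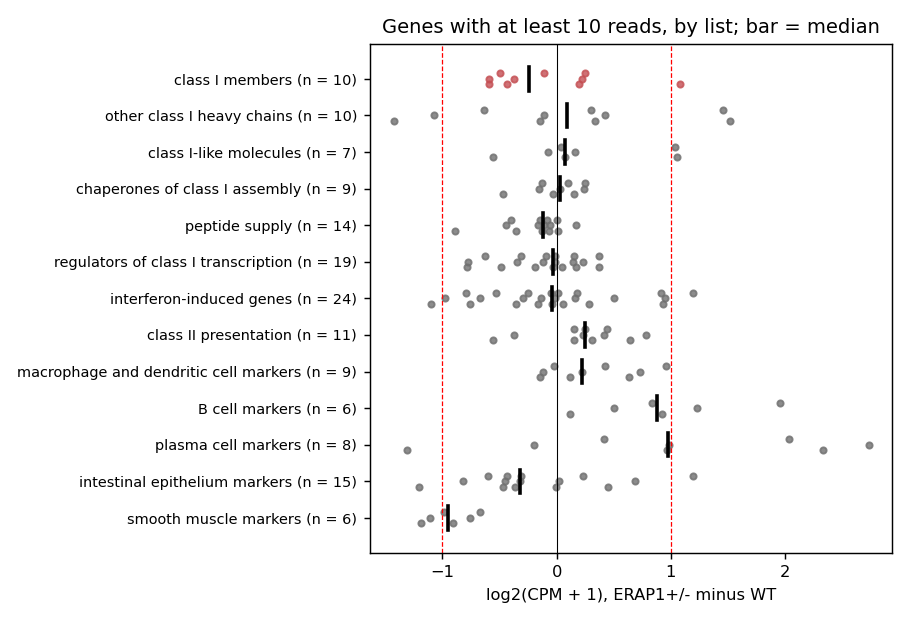
Difference in log2(CPM + 1), ERAP1+/- minus WT, of single genes with at least 10 reads over both libraries, by list, with the list median as a black bar and red lines at 2-fold; class I members are red. The members fall into a lower group around -0.5 and a group near or above 0, the chaperones and peptide supply genes have medians close to 0, and the B cell markers and most plasma cell markers lie to the right of it.

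Of 19 regulators of class I transcription, 14 reached the level and none was called. Over the 19 the median difference was -0.03, with 7 higher and 12 lower. With scaling by the total count it was 0.09, with 12 higher and 7 lower. The counting interval lay above 1 for 1 gene, below 1 for 7 and held 1 for 11. Ifngr1, a chain of the interferon gamma receptor, had 2329 and 2754 reads (ratio 0.988, 95% interval 0.934 to 1.04), and the kinase Jak1 had 1712 and 2001 (ratio 0.976, 95% interval 0.915 to 1.04). Irf1, which binds the interferon response element of class I genes, had 1933 and 1652 reads and a ratio of 0.714 (95% interval 0.668 to 0.763). Among 27 interferon-induced genes, 24 had at least 10 reads, with a median difference of -0.04, 10 higher and 14 lower. Scaled by the total count it was 0.03. Only 5 of the 27 reached the level, where 5.34% of all compared genes were called. Of those 5 genes Irf7, an interferon regulatory factor, was the only 1 called, with 312 and 169 reads (ratio 0.452, 95% interval 0.373 to 0.547). Gbp7 and Gbp2, guanylate-binding proteins induced by interferon gamma, had ratios of 0.775 (95% interval 0.661 to 0.908) and 0.974 (95% interval 0.782 to 1.21).

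The class II genes, which present peptides to CD4+ T cells, stood mostly on the other side of 0 from the classical heavy chains. Of the 11, 5 reached the level and none was called. By direction 9 were higher and 2 lower, and their median difference was 0.25. The counting interval lay above 1 for 4, below 1 for 1 and held 1 for 6. Without Ctss, left out after its value was seen, the median was 0.28. The summed reads of the list had a ratio of 0.912 (95% interval 0.886 to 0.939) with Ctss. Without Ctss the ratio was 1.33 (95% interval 1.27 to 1.39). H2-Aa had 809 and 1515 reads (ratio 1.56, 95% interval 1.44 to 1.71) and H2-Ab1 had 847 and 1130 (ratio 1.11, 95% interval 1.02 to 1.22). Ctss, a protease that also has other functions, had 5652 and 4598 reads and a ratio of 0.680 (95% interval 0.653 to 0.707). No test of the difference between the class I and class II genes was possible with these libraries.

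Markers of the cells that carry class I molecules also differed between the libraries, and their part in the values above was not tested. The markers of intestinal epithelium had a median difference of -0.32 over 15 genes, with 10 lower and 5 higher, or, scaled by the total count, 9 and 6. Among them the mucin gene Muc2 was called higher (12020 and 32939 reads) and the keratin gene Krt20 lower (5156 and 2674 reads). Relative to the summed reads of all 15 markers, H2-K1 was 0.786 times as high in the library labelled ERAP1+/- as in WT (95% interval 0.762 to 0.810), H2-D1 0.704 times, Tapbp 0.705 times and B2m 1.245 times (95% interval 1.21 to 1.28). Relative to Epcam alone (9812 and 9413 reads), chosen after its values were seen, these were 0.922, 0.826, 0.827 and 1.46 times. The size of each value thus differed between these denominators, while its direction was the same for both. It would not be the same for every marker. Krt20 fell further than H2-K1, H2-D1 and Tapbp, which would be higher relative to it. Muc2 rose further than B2m, which would be lower relative to it. Macrophage and dendritic cell markers summed to 1702 and 2526 reads over 9 genes (median 0.22), and endothelial markers to 688 and 960 over 5 genes (median 0.29). B cell markers summed to 98 and 264 reads over 7 genes and plasma cell markers to 3877 and 18277 over 8 genes. Of the plasma cell markers 6 were higher and 2 lower, and most of the sum was Igha (1670 and 13367 reads), called higher with Jchain and Mzb1, while Prdm1 (216 and 99 reads) was called lower. T and NK cell markers had few reads, 68 and 119 over 14 genes. The receptors that bind class I molecules had 59 and 69 reads over 9 genes, of which 4 had none, Cd8b1 among them. Smooth muscle markers were all 6 lower, from 65199 to 40125 reads, with Myh11 and Tagln called.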

How the data were processed

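Total RNA of intestine, pooled from 3 mice per genotype, was sequenced with the QuantSeq 3' mRNA-Seq FWD kit as 1 library per genotype with single-end reads of 75 bases. Raw counts of reads by gene symbol, not normalized, were deposited by the authors. The methods name STAR with HTSeq-count and also Bowtie2 with RSEM on GRCm38 (the submitters' processing notes for the deposited counts name Bowtie2 and RSEM). These tools treat reads that map to several genes differently, which bears on the heavy chain genes.

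TMM (trimmed mean of M values) factors came from edgeR 4.0.16 under R 4.3.3 and were 0.958 for WT and 1.04 for ERAP1+/-. Exact conditional binomial intervals of ratios were made with scipy 1.17.1, and ratios of pairs carry Wald intervals. Where no read was found, a level of up to 3 reads remains possible (0.386 CPM for WT, 0.322 CPM for ERAP1+/-). A gene was called where it passed 2-fold on the log2(CPM + 1) scale and its log2 level reached 4 in either library. The intervals and the rule were tested on simulated data that held counting error only, without differences between mice or pools. Lists needed 10 reads over both libraries for a median. Named were all members, Erap1 and, from each related list, every called gene and otherwise the 3 genes with most reads. Markers of cell types were given by sums and counts, and marker genes named singly were chosen after their values were seen. The members and lists were chosen with earlier results of these data known. Coordinates come from GENCODE M21 on GRCm38, the build in the submitters' processing notes. Alternatives were other scalings, including DESeq2 1.42.0 size factors, another pseudocount, other filters and other thresholds.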

Additional observations from a re-analysis of the deposited data

How the results depend on the processing

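No paired analysis was possible because the comparison rests on a single library on each side, and no replicate could be left out. No class I gene passed 2-fold under any of the 3 other scalings, a pseudocount of 0.1, a log2 level of 6, a 4-fold threshold or libraries thinned to equal depth. With a filter of 10 reads in 1 library and with no filter 1 gene did (H2-M3), and with a 1.5-fold threshold 2 did (H2-D1 and Tapbp). Over all genes the count of 428 became 1390 and 1434 under those filters, 160 with the level of 6, 1247 with a 1.5-fold and 160 with a 4-fold threshold. The ratio of summed heavy chain reads was 0.774 with scaling by the total count, which moved the median of all compared genes by 0.12 on the log2 scale and the calls over all genes from 111 higher and 317 lower to 166 and 248. No class I gene changed direction under the alternatives. Thinning, the scalings of the sum and the class II list without Ctss were chosen after seeing the data. The 4 genes with at most 23 reads in a library are limited by depth.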

Other observations

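The following genes were named after their values were seen, and the heavy chain and class I-like genes among them had few reads in WT. H2-M2, a non-classical heavy chain, had 24 and 100 reads and a ratio of 3.48 (95% interval 2.21 to 5.68). H2-T24 had 6 and 36 reads (ratio 5.01, 95% interval 2.09 to 14.6). Cd1d1, which presents lipids to NKT cells, had 16 and 49 reads. With H2-M3, each was higher in the library labelled ERAP1+/- with a counting interval that did not hold 1, and none reached the level of 4. H2-K2 went the other way, with 86 and 44 reads and a ratio of 0.427 (95% interval 0.290 to 0.622).

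The kinase Jak2, which carries signals of the interferon gamma receptor, had 529 and 365 reads (ratio 0.576, 95% interval 0.503 to 0.660). Irf9, a subunit of the factor that type I interferon activates, had 311 and 238 (ratio 0.639, 95% interval 0.538 to 0.759). The chemokines Cxcl9 and Cxcl10, induced by interferon gamma, had 4 and 23 and 4 and 18 reads.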
